A study of Mus musculus with 20 samples.

Results

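The circadian clock of mammalian cells is a feedback loop of transcription. CLOCK and BMAL1, the product of Arntl, bind E-box elements and switch on the Period (Per) and Cryptochrome (Cry) genes, whose proteins return to the nucleus and repress CLOCK and BMAL1. A second loop runs through the nuclear receptors REV-ERBα and REV-ERBβ, encoded by Nr1d1 and Nr1d2, which repress Arntl, and DBP, a factor that binds D-box elements, carries the rhythm to output genes. Per1 and Per2 also respond to light, neuronal activity and hormones, and many cells of the hippocampus carry a clock of their own.

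The 10 core clock genes Arntl, Clock, Per1, Per2, Per3, Cry1, Cry2, Nr1d1, Nr1d2 and Dbp were taken by name from the 32285 genes counted in hippocampal nuclei of 20 mice, 1 library per mouse, by single nuclei RNA-sequencing. They were chosen by a measured value, the low Per2 level under ketamine in CA1 neurons, so every ketamine value below is a description without a test. The mice were males of 4.5 to 5.5 months, either APP/PS1 mice, which carry the APPSwe and PS1ΔE9 transgenes of familial Alzheimer's disease, or their wild-type (WT) littermates. By the labels, 6 mice were WT-Awake and 3 APP/PS1-Awake (AD-Awake in the plots), 3 WT and 4 APP/PS1 mice were under isoflurane (5% at induction, then 1.5%), and 2 WT and 2 APP/PS1 mice were under ketamine (150 mg/kg) with xylazine (12 mg/kg), all anesthetized for 3 h. Mice are named by the number in their label. The study places the awake and isoflurane mice at one circadian time, while the hour of each mouse is not given in the sources used here. Its part in the levels of these rhythmic genes was not tested.

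Library totals ran from 9243992 to 25394891 unique molecular identifiers (UMIs, 1 per captured RNA molecule), with 4743 to 10877 nuclei per mouse. Mice 1 to 4 stood apart, with 0.939 to 1.78% of UMIs from mitochondrial genes against 0.0353 to 0.336% in the other 16 mice. Prnp, the gene whose promoter drives both transgenes, went against some genotype labels: mice 11 and 17, labelled APP/PS1, had 63.6 and 74.5 CPM (counts per 1000000 UMIs), and mouse 14, labelled WT, had 195.7 CPM. Over all mice the labelled genotypes overlapped (WT 42.2 to 195.7 CPM, APP/PS1 63.6 to 433.4 CPM), with WT mouse 3 at 149.2 CPM and APP/PS1 mouse 20 at 99.7 CPM also within the range of the other label. Genotypes are therefore used as labelled, and the counts are also given without mice 11, 14 and 17 and without mice 1 to 4, the first of which keeps mice 3 and 20. Libraries shared 5 to 35 cell barcodes per pair, at most 0.407% of the smaller library. A set of 10 marker genes per class assigned 108507 of 160777 nuclei (67.5%) to 12 cell classes, and 7 of these had enough nuclei in each group for a test: dentate gyrus (DG) granule, CA1 and CA3 neurons, inhibitory neurons, astrocytes, oligodendrocytes and oligodendrocyte precursor cells (OPC).

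Upstream sequences of 4 members that hold the letters of clock elements are shown, as letter matches and not as known sites. They are RefSeq sequences of GRCm38.p6, read 5′ to 3′ on the strand of the gene, and capitals mark the motifs found by a search of both strands. Among 32851 promoters (250 bases before to 50 after the start), the E-box CACGTG was in 7.15%, its variant CACGTT in 4.68% and the D-box TTANGTAA in 2.32%. Per1 is shown for its E-box, at chr11:69098699-69098947 on the plus strand, inside the annotated gene Per1 itself. Per3 is shown for a pair of D-boxes, at chr4:151044786-151044895 on the minus strand, inside the annotated gene Camta1. Cry1, at chr10:85185085-85185164 on the minus strand, is shown for an E-box beside the variant, which reads AACGTG from the other strand. Nr1d1, at chr11:98775378-98775437 on the minus strand, is shown for the variant alone, and both of these windows are intergenic.
Per1: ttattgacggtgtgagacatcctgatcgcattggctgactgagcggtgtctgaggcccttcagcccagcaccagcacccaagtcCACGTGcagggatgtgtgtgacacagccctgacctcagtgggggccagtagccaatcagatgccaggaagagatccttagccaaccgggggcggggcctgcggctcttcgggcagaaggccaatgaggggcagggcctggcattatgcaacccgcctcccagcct
Per3: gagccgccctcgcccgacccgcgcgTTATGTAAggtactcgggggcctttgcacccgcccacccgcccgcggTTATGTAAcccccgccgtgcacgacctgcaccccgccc
Cry1: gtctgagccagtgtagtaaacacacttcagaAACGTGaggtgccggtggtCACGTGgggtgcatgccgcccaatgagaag
Nr1d1: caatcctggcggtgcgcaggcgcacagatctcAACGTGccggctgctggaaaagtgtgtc
Of the other members with a RefSeq promoter, Cry2 also held the variant CACGTT and a promoter of Arntl held TAGGTCA, the core of the element bound by REV-ERB and ROR receptors, which was in 2.61% of promoters. None of these letters was found in the windows of Clock, Nr1d2 or Dbp. Per2 had no entry.

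Each member had its own order of levels across the cell classes, compared here within a gene only. Astrocytes had the highest median level over the 20 mice for 9 of the 10 genes. The share of all genes that were highest in astrocytes is not given here. CPM is a share of the UMIs of a class and not an amount per nucleus. In mouse 14, for example, the median astrocyte nucleus held 909 UMIs and the median CA1 nucleus 2530. The exception was Clock, the partner of BMAL1, whose median was lowest in astrocytes (70.2 CPM) and highest in oligodendrocytes (168 CPM), with DG granule neurons above astrocytes in 20 of 20 mice. Arntl was at 77.6 CPM in astrocytes and 75.3 CPM in CA1 neurons, neighbours that did not differ beyond their spread (astrocytes higher in 9 of 20 mice), and at 23.2 CPM in oligodendrocytes.

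**Figure D1:**
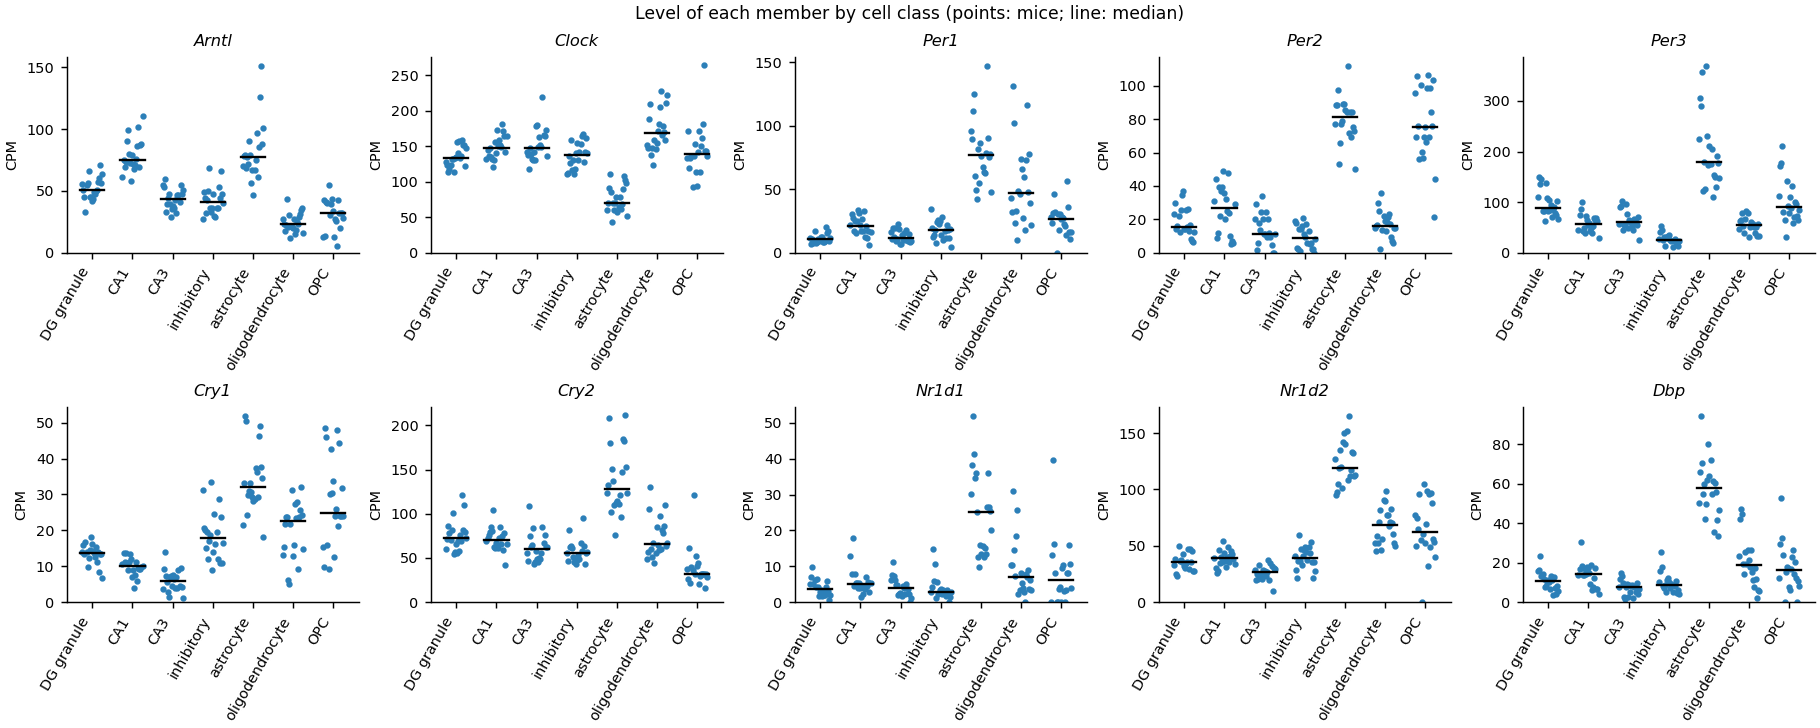
Level of each core clock gene in 7 cell classes, in CPM (linear axis from 0, 1 panel per gene), with 1 point per mouse and a line at the median of 20 mice. Astrocytes have the highest median in every panel but that of Clock, where they have the lowest.

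Among the repressors, Per2 was at 81.4 CPM in astrocytes and 75.4 CPM in OPC, with astrocytes higher in 12 of 20 mice, so this order did not exceed the spread. Both were far from the neurons, where the median of Per2 was 26.9 CPM in CA1, 15.6 in DG granule, 11.4 in CA3 and 8.67 in inhibitory neurons. Per1 had a median of 76.7 CPM in astrocytes, 46.8 CPM in oligodendrocytes and 10.5 CPM in DG granule neurons, its lowest class. Per3, at 178 CPM in astrocytes, was higher there than in OPC, the next class, in 20 of 20 mice. The same held for Cry2 against the next class, DG granule neurons (128 against 72.5 CPM, 20 of 20 mice). For Nr1d2 and Dbp the next class was oligodendrocytes, and the 2 medians were 119 and 68.6 CPM for Nr1d2 and 57.9 and 18.8 CPM for Dbp, with astrocytes higher in 20 of 20 mice for both. Nr1d1 had 25.2 CPM in astrocytes and 2.80 CPM in inhibitory neurons. Cry1 ran from astrocytes (32.0 CPM) to CA3 neurons (5.99 CPM), with neighbouring classes in this order in 12 to 18 of 20 mice.

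Isoflurane was compared with the awake state to ask which clock genes differ under general anesthesia. The labels gave 9 awake and 7 isoflurane mice, and both genotypes were weighted equally. Of the 10 members, 1 (Per2) was lower in the sum of all nuclei, where 5.12% of 19895 genes passed the test in either direction (edgeR quasi-likelihood test with Benjamini-Hochberg adjustment over all genes, threshold 0.05). By class, 5 of 66 gene and class pairs passed, where 0.45 to 5.07% of all genes passed in a class. These pairs were Per2 lower in DG granule, CA1, CA3 and inhibitory neurons and Per1 higher in oligodendrocytes. At an unadjusted edgeR p under 0.05 there were 12 of 66 pairs, and 1 of 10 members in all nuclei. Of all genes, 9.52 to 18.4% in the classes and 18.9% in all nuclei were at this level, so these unadjusted counts were near this background. A pair could not be tested where counts were too low, which left out Nr1d1 in inhibitory neurons and Per1, Nr1d1 and Dbp in OPC. Per2 was not called in astrocytes, oligodendrocytes or OPC, where 5.07%, 3.3% and 0.45% of genes passed.

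Per2 encodes the PERIOD protein that limits the loop and responds to activity. In CA1 neurons, where 4.89% of genes passed, Per2 ranged from 28.9 to 49.2 CPM in the 6 WT-Awake mice (median 38.0) and was 44.3, 39.3 and 31.9 CPM in the 3 APP/PS1-Awake mice. Under isoflurane Per2 was 8.90, 19.9 and 25.0 CPM in WT mice and 11.9, 22.2, 35.7 and 23.5 CPM in APP/PS1 mice. Of the 7 isoflurane mice, 6 were below every awake mouse and 1, mouse 15, lay within the awake range. The log2 difference of Per2 in CA1 was −0.92 (SE 0.23, edgeR adjusted p = 0.0303). The awake CA1 values are also those against which the ketamine level that chose the genes was low, so this p is not independent of the choice, and the same awake mice enter the tests in the other classes.

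**Figure D2:**
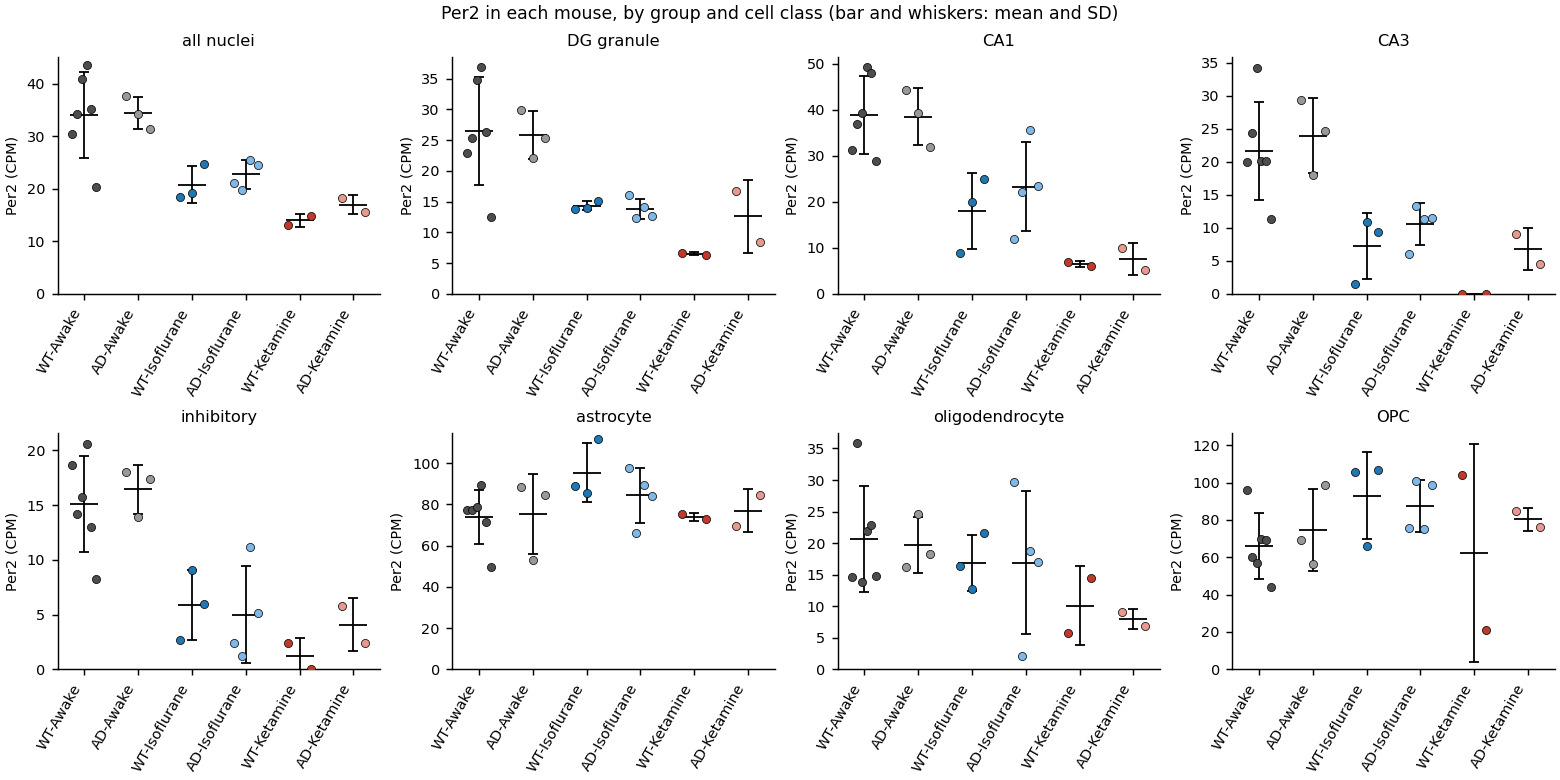
Per2 level in each mouse (CPM, linear axis from 0) for all nuclei and 7 cell classes, by group, where AD means APP/PS1 and bars are the mean and SD. In CA1 the isoflurane mice lie between 8.90 and 35.7 CPM and the ketamine mice between 5.17 and 10.0 CPM, against 28.9 to 49.2 CPM in the awake mice, whereas the astrocyte levels overlap.

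DG granule neurons had higher Per2 in 8 of 9 awake mice than in all 7 isoflurane mice. WT-Awake mice there had 12.5 to 37.0 CPM (median 25.8), and APP/PS1-Awake mice had 30.0, 22.1 and 25.3 CPM. WT mice under isoflurane had 13.9, 14.0 and 15.2 CPM, and APP/PS1 mice had 16.1, 12.4, 14.1 and 12.7 CPM. The isoflurane values were close to each other, and the 1 awake mouse among them was mouse 29, at 12.5 CPM. The log2 difference of Per2 was −0.89 (SE 0.18, adjusted p = 0.0256 by edgeR), in a class where 2.06% of genes passed.

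CA3 neurons gave the same order with fewer counts. Per2 was 11.3 to 34.2 CPM in WT-Awake mice (median 20.1) and 29.3, 18.0 and 24.6 CPM in APP/PS1-Awake mice. Under isoflurane it was 1.48, 10.9 and 9.31 CPM in WT mice and 5.99, 13.3, 11.3 and 11.5 CPM in APP/PS1 mice, and the lowest of these rested on 2 UMIs. As in DG, 8 of 9 awake mice were above all 7 isoflurane mice, the exception again being mouse 29. The log2 difference was −1.35 (SE 0.29, adjusted p = 0.0255 by edgeR), where 1.68% of genes passed.

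Inhibitory neurons had the lowest Per2 levels of the 4 neuron classes. WT-Awake mice had 8.28 to 20.6 CPM (median 15.0) and APP/PS1-Awake mice 18.0, 13.9 and 17.4 CPM. Isoflurane mice had 2.70, 9.06 and 5.96 CPM with the WT label and 2.45, 1.22, 11.2 and 5.14 CPM with the APP/PS1 label. Here 5 of the 7 isoflurane mice were below every awake mouse. The inhibitory sums of the isoflurane mice held 838455 to 1851938 UMIs of all genes, so the lowest of these values rested on few Per2 UMIs. The log2 difference of Per2 was −1.56 (SE 0.34, adjusted p = 0.0248 by edgeR), where 1.92% of genes passed.

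Over all nuclei Per2 was 20.4 to 43.6 CPM in WT-Awake mice (median 34.7) and 37.7, 34.2 and 31.4 CPM in APP/PS1-Awake mice. The isoflurane mice had 18.4, 19.2 and 24.8 CPM (WT) and 21.2, 19.7, 25.5 and 24.6 CPM (APP/PS1). The log2 difference was −0.65 (SE 0.14, adjusted p = 0.0165 by edgeR), and 8 of 9 awake mice were above all isoflurane mice. In such a sum over all nuclei, fewer nuclei of a class and less RNA per nucleus cannot be told apart.

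In astrocytes, the class with the highest Per2, the states overlapped. Per2 was 49.9 to 89.3 CPM in WT-Awake mice (median 77.3) and 88.5, 53.2 and 84.4 CPM in APP/PS1-Awake mice. It was 88.8, 85.7 and 111.7 CPM in WT and 97.8, 65.9, 89.4 and 84.2 CPM in APP/PS1 mice under isoflurane, ranges that overlapped (log2 difference 0.26, SE 0.15, adjusted p = 0.381 by edgeR). In oligodendrocytes Per2 was 13.8 to 35.8 CPM awake and 2.05 to 29.6 CPM under isoflurane (−0.10, SE 0.32, adjusted p = 0.92 by edgeR). In OPC it was 44.0 to 98.9 CPM awake and 66.2 to 106.8 CPM under isoflurane (0.31, SE 0.20, adjusted p = 0.687 by edgeR).

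The neuron classes were also set beside astrocytes of the same mouse, as the log2 ratio of Per2 in a neuron class to Per2 in astrocytes. These genes and classes were picked for their calls in the same mice, so the ratios are given as values with no test. The ratio under isoflurane minus that in the awake mice was −1.11 for DG granule, −1.25 for CA1, −1.70 for CA3 and −1.97 for inhibitory neurons. In each, 7 of 7 isoflurane mice were below the awake mean. In CA1 the ranges overlapped, at −3.289 to −1.327 under isoflurane and −1.402 to −0.435 awake, and in the other neuron classes they did not. Without mice 1 to 4 the differences were −1.15, −0.92, −1.17 and −1.62. The summed level of 10 astrocyte markers in the same neurons, a measure of astrocyte RNA among them, was 619 to 1055 CPM in awake and 675 to 970 CPM in isoflurane CA1 nuclei and 898 to 1400 against 860 to 1224 CPM in DG, ranges that overlapped. It was 437 to 604 against 431 to 503 CPM in CA3 and 283 to 663 against 216 to 359 CPM in inhibitory neurons, and its part in the Per2 values was not tested.

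The lower Per2 held in direction, but not past the threshold, when mice 1 to 4 were left out. It was then −0.58 in all nuclei (adjusted p = 0.193), −0.88 in DG granule (0.201), −0.61 in CA1 (0.146), −0.99 in CA3 (0.172) and −1.16 in inhibitory neurons (0.215) by edgeR. Without mice 11, 14 and 17 the adjusted p by edgeR was 0.0475 for Per2 in all nuclei and 0.0704 to 0.0884 in the 4 neuron classes, at differences of −0.61, −0.81, −0.93, −1.42 and −1.36 in the same order. With the same number of nuclei drawn per mouse the call was lost by edgeR in DG granule (adjusted p = 0.0972), CA1 (0.127) and CA3 neurons (0.196). Per2 in inhibitory neurons then had too few counts for a test, and the call in all nuclei was kept (0.0233). With a stricter gate the Per2 call was lost in CA1 (adjusted p = 0.077 by edgeR) and CA3 neurons (0.0596). Single mice also moved calls of Per2 by edgeR: without APP/PS1-Awake mouse 2 Per2 was −0.62 in all nuclei, −0.83 in DG granule, −0.86 in CA1, −1.27 in CA3 and −1.53 in inhibitory neurons, with edgeR adjusted p of 0.0513, 0.0738, 0.0817, 0.0731 and 0.0563. Without WT-Isoflurane mouse 3 the values were −0.61 (adjusted p = 0.0518) in all nuclei, −0.88 (0.0639) in DG granule, −0.76 (0.0692) in CA1 and −1.39 (0.062) in inhibitory neurons. The Per2 call in CA1 was also lost without mouse 10 (−0.91), 14 (−0.88), 16 (−0.95) or 20 (−0.92), in DG without mouse 16 (−0.88) or 18 (−0.91), in CA3 without mouse 4 (−1.25) or 18 (−1.44), and in inhibitory neurons without mouse 4 (−1.41) or 18 (−1.57).

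The numbers of the awake and isoflurane mice, mouse 29 apart, were cut into runs of at most 4 because the methods name tissue batches of 4 holding each of the 4 awake and isoflurane groups. The labels do not say which mice formed a batch, so the cuts between mice 13 and 14 and between 17 and 18 are an assumption. By the labels, the run of mice 10 to 13 lacks a WT-Isoflurane mouse and that of 18 to 20 an APP/PS1-Awake mouse. In these runs the states therefore also differ in genotype. Within these runs, compared after seeing the data, Per2 was lower under isoflurane in 4 of 4 runs in all nuclei and in each neuron class. In CA1 the log2 differences of Per2 were −1.84 (mice 1 to 4), −0.79 (10 to 13), −0.57 (14 to 17) and −0.99 (18 to 20). In DG granule neurons they were −0.81, −1.12, −1.11 and −0.92, so that the first run was the smallest there and the largest in CA1. In CA3 they were −2.86, −0.88, −0.98 and −0.95, and in inhibitory neurons −2.71, −3.05, −0.88 and −1.19. The −3.05 set 3 awake mice against mouse 11 alone, which had the lowest Per2 of the isoflurane mice in that class. That value of mouse 11 rested on few Per2 UMIs, in a sum of 884400 UMIs of all genes. A run holds 1 to 3 mice of each state, and no test was made within a run.

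Per1, a PERIOD gene that signals from outside the cell induce quickly, was called in another class. In oligodendrocytes, where 3.3% of genes passed, Per1 was 10.2 to 48.2 CPM in WT-Awake mice (median 32.5) and 32.3, 23.7 and 27.4 CPM in APP/PS1-Awake mice. It was 131.2, 65.7 and 59.5 CPM in WT mice and 101.9, 32.8, 74.0 and 72.9 CPM in APP/PS1 mice under isoflurane. Of the 7 isoflurane mice 6 were above every awake mouse, and mouse 11, at 32.8 CPM, lay within the awake range. The log2 difference was 1.39 (SE 0.30, adjusted p = 0.0142 by edgeR), with 1.38 in WT and 1.40 in APP/PS1 mice.

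**Figure D3:**
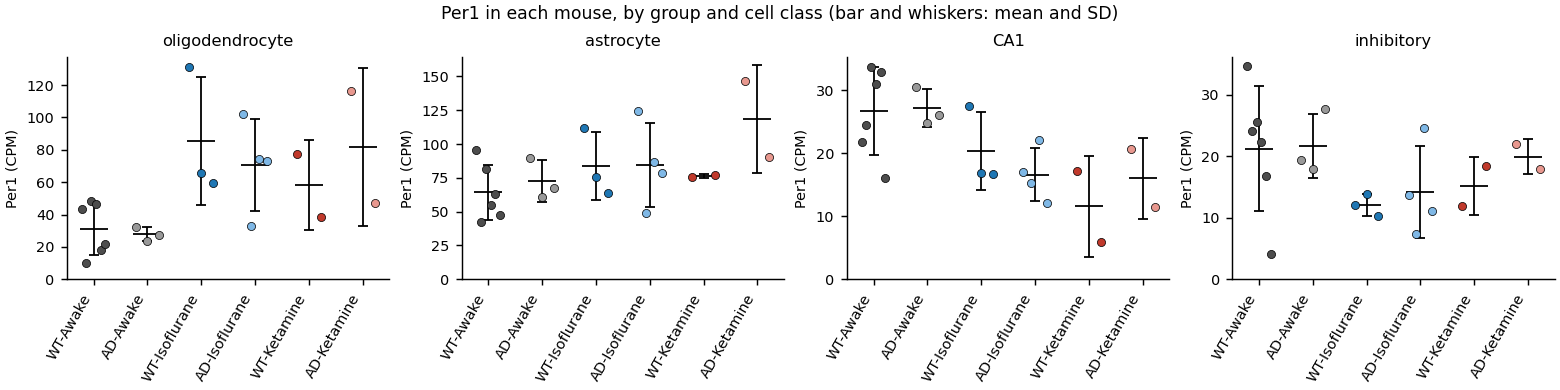
Per1 level in each mouse (CPM, linear axis from 0) for oligodendrocytes, astrocytes, CA1 and inhibitory neurons, by group, where AD means APP/PS1 and bars are the mean and SD. In oligodendrocytes 6 of the 7 isoflurane mice lie above the highest awake mouse at 48.2 CPM, while in CA1 the isoflurane mice (12.1 to 27.6 CPM) overlap the awake mice (16.1 to 33.8 CPM).

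Leaving out 1 mouse at a time kept Per1 in oligodendrocytes between 1.13 and 1.49, with adjusted p of 0.00759 to 0.0456 by edgeR. Within the runs of mouse numbers the difference was 1.62, 0.45, 0.96 and 1.82. Without mice 1 to 4 it was 1.12 and did not pass (adjusted p = 0.114 by edgeR), nor did it with nuclei of at least 500 genes (1.26, adjusted p = 0.0737), and without mice 11, 14 and 17 it was 1.51 (adjusted p = 0.0314) and with equal nuclei per mouse 1.69 (adjusted p = 0.00955). The oligodendrocyte nuclei also differed in a list meant to mark another class: 10 CA1 markers summed to 2324 to 3460 CPM in awake and 3973 to 5509 CPM in isoflurane mice. Most of this was Pex5l (1601 to 3086 against 3566 to 4975 CPM), and the other 9 markers summed to 342 to 1556 CPM awake and 373 to 777 CPM under isoflurane. In CA1 nuclei Pex5l was 1866 to 2604 CPM awake and 1617 to 2548 CPM under isoflurane, so it did not set CA1 apart from oligodendrocytes. The astrocyte list in these nuclei was at 472 to 1374 CPM awake and 469 to 976 CPM under isoflurane, and the part of either list in the Per1 values was not tested.

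In neurons no Per1 difference passed the test. The log2 difference of Per1 was −0.55 in CA1 (SE 0.19, adjusted p = 0.101), −0.53 in CA3 (SE 0.25, adjusted p = 0.354), −0.73 in inhibitory (SE 0.31, adjusted p = 0.301) and −0.18 in DG granule neurons (SE 0.18, adjusted p = 0.748) by edgeR. In DG granule neurons Per1 was slightly higher under isoflurane within 3 of the 4 runs (0.02, −0.57, 0.09 and 0.07). With the number run as a block, Per1 passed by edgeR in CA1 (−0.59, adjusted p = 0.0385) and in inhibitory neurons (−0.84, adjusted p = 0.0256). In that fit mouse 29, alone in its run, formed a block of its own and carried no weight in the differences. The block fit called 9.31% of all genes in CA1 and 4.93% in inhibitory neurons. Per1 also passed in CA1 with nuclei assigned by likelihood (−0.63, adjusted p = 0.027 by edgeR). The log2 ratio of Per1 in oligodendrocytes to Per1 in a neuron class of the same mouse was higher under isoflurane by 1.48 for DG granule, 1.91 for CA1, 1.88 for CA3 and 1.95 for inhibitory neurons. These pairs were picked in the same way and carry no test, and 7 of 7 isoflurane mice were above the awake mean in each. The ranges overlapped for DG granule (isoflurane from 2.1, awake up to 2.321) and inhibitory neurons (from 1.566, up to 2.202). They did not for CA1 and CA3. Without mice 1 to 4 these ratios differed by 1.36, 1.88, 2.01 and 1.68. Over all nuclei, Per1 was 17.8 to 32.7 CPM awake and 15.3 to 36.1 CPM under isoflurane (−0.12, SE 0.18, adjusted p = 0.816 by edgeR), so the class values did not show in the sum.

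**Figure D4:**
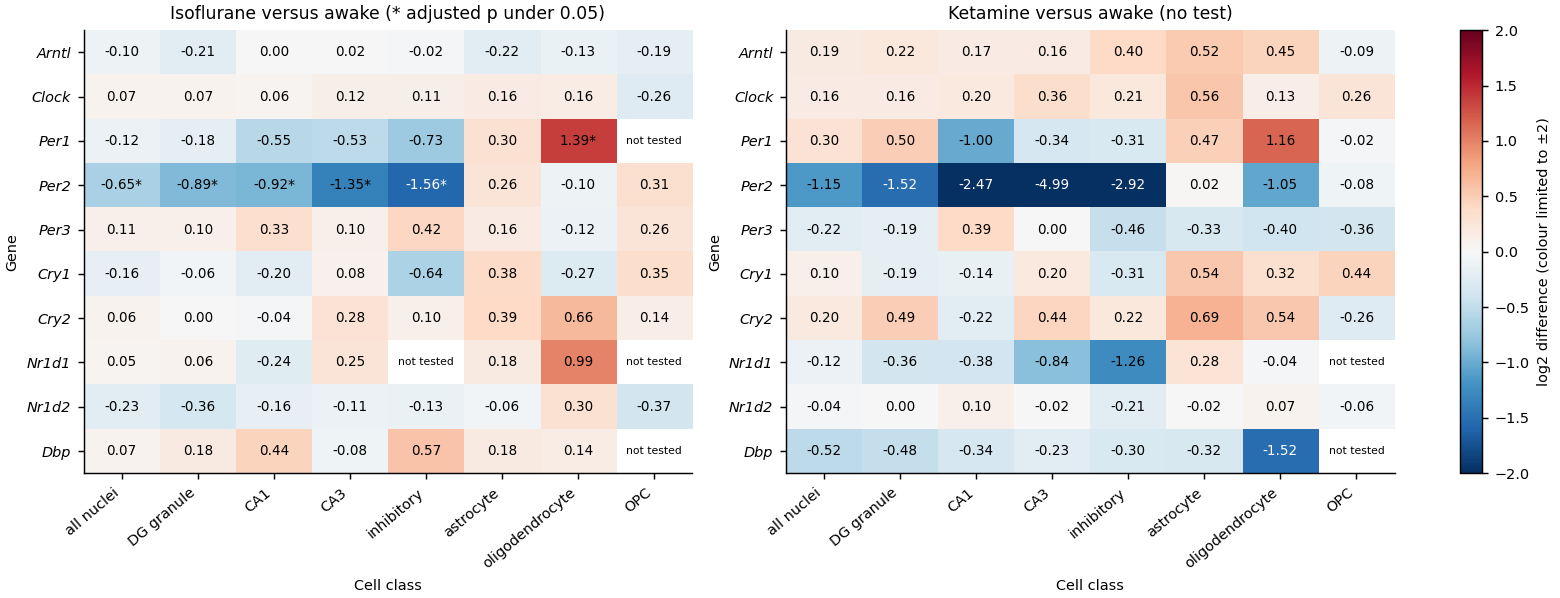
Log2 difference from the awake mice for each core clock gene (rows) in all nuclei and 7 cell classes (columns), under isoflurane (left, stars mark adjusted p under 0.05) and under ketamine (right, no test), with colour limited to 2 in either direction. The 6 stars are on Per2 in all nuclei and 4 neuron classes and on Per1 in oligodendrocytes.

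The activators did not pass in any class. Arntl, which encodes BMAL1, was 47.1 to 71.1 CPM over all nuclei in awake and 45.7 to 64.4 CPM in isoflurane mice (log2 difference −0.10, SE 0.11), and its differences in the 7 classes ran from −0.22 to 0.01. Clock was 120.5 to 147.3 CPM awake and 117.1 to 155.0 CPM under isoflurane (0.07, SE 0.08), and ran from −0.26 in OPC to 0.16 in astrocytes.

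The other repressors gave no call in all nuclei. Per3, an accessory PERIOD gene, differed by 0.11 (SE 0.21), Cry1 by −0.17 (SE 0.17) and Cry2, its paralogue, by 0.06 (SE 0.13), with adjusted p of 0.689 to 0.879 by edgeR. In oligodendrocytes Cry2 was 0.66 higher (SE 0.19, adjusted p = 0.0699), a value that passed with DESeq2 (adjusted p = 0.0362), with likelihood assignment (0.0357) and without mouse 11 (0.028). In inhibitory neurons Cry1 was at −0.64 (SE 0.20, adjusted p = 0.126 by edgeR) and passed with the number run as a block (adjusted p = 0.0324). Nr1d1 and Nr1d2 differed by 0.05 (SE 0.39) and −0.23 (SE 0.12) over all nuclei, and the largest difference of Nr1d2 in a neuron class was −0.36 in DG (adjusted p = 0.235 by edgeR). Dbp, the output factor, was 9.29 to 26.8 CPM awake and 8.63 to 35.6 CPM under isoflurane (0.07, SE 0.25).

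Some members varied more with the mouse than with the state. Over all nuclei Per3 was 125.4, 116.1, 127.1 and 125.7 CPM in mice 2, 3, 4 and 13, which belong to 4 different groups, and 53.0 to 97.4 CPM in the other 16. Per3 (chr4:151003652-151044665, minus strand, GRCm38) lies inside the larger gene Camta1 on the same strand, so reads from introns of both cannot always be told apart. Camta1 was 346 to 388 CPM in the 4 mice with high Per3 and 327 to 475 CPM in the other 16. Nr1d1 was 8.39 to 19.2 CPM in mice 1 to 4 and 10 to 12, 3.81 to 5.15 CPM in mice 13 to 20, and 8.49, 9.12, 5.37, 5.90 and 4.61 CPM in mice 25 to 29, which lay in and between both ranges. Dbp ran from 8.57 CPM in mouse 27 to 35.6 CPM in mouse 3. Nr1d1 overlaps Thra, Dbp overlaps Sphk2, Cry2 overlaps D930015M05Rik and Arntl overlaps Gm45355, each on the opposite strand.

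**Figure D5:**
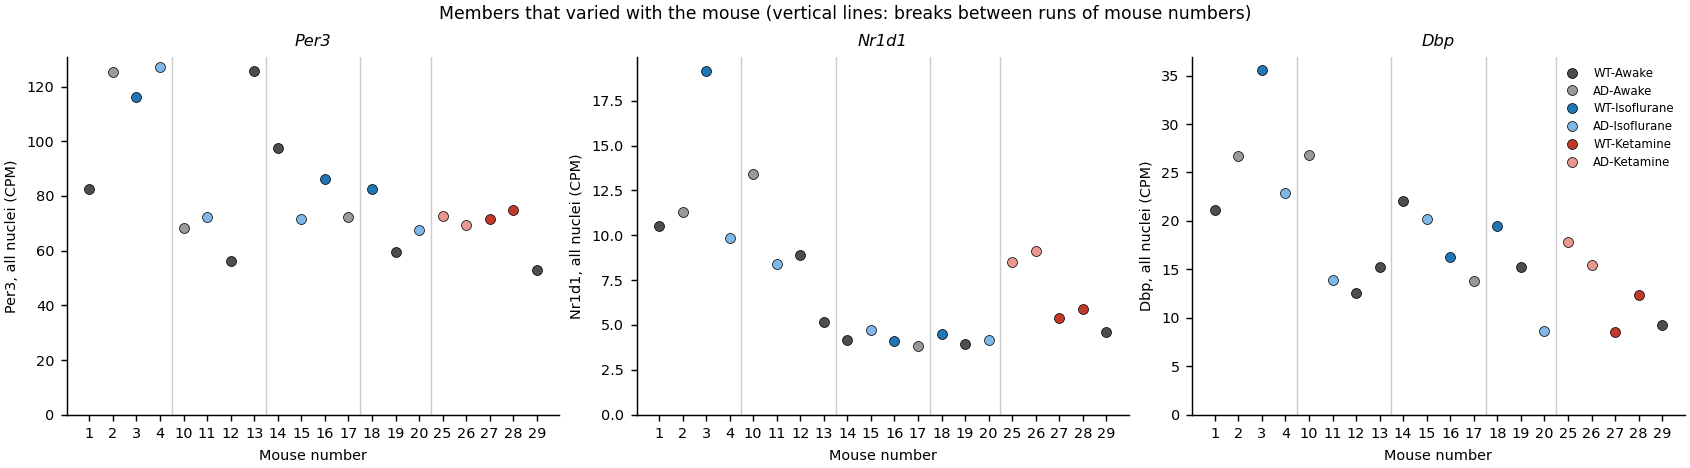
Level of Per3, Nr1d1 and Dbp in all nuclei (CPM, linear axis from 0) by mouse number, coloured by group (AD means APP/PS1), with vertical lines between runs of numbers. Per3 is high in mice 2, 3, 4 and 13 (116.1 to 127.1 CPM) and Nr1d1 is low in mice 13 to 20 (3.81 to 5.15 CPM).

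Genotype was compared to ask whether the clock genes differ between labelled APP/PS1 and WT mice. The text of the series counts 5 WT-Awake, 4 APP/PS1-Awake, 4 WT-Isoflurane and 3 APP/PS1-Isoflurane mice, where the sample labels followed here give 6, 3, 3 and 4. Both counts have the same totals per state and per genotype. Genotype labels may therefore be wrong within a state, or state labels within a genotype. Results by genotype and by state both rest on the labels. None of the 10 members passed in all nuclei or in any of the 66 pairs by edgeR, in a contrast where 0% of genes passed in all nuclei (152 of 19895, 0.764%, at an unadjusted p under 0.05) and in each class. As no gene was called, Prnp included, the 0 for members does not show that they were equal between genotypes. At an unadjusted p under 0.05 there were 0 members in all nuclei and 1 pair, Arntl in OPC (log2 difference 0.85, SE 0.34), and DESeq2 called 0. The difference of the isoflurane effect between genotypes was tested as an interaction, which called 0 members in edgeR and DESeq2, with 0 at an unadjusted p under 0.05 and 0% of all genes passing in all nuclei. For Per2 the isoflurane differences in WT and APP/PS1 mice were −1.11 and −0.73 in CA1, −0.88 and −0.90 in DG granule, −1.53 and −1.18 in CA3 and −1.35 and −1.78 in inhibitory neurons, and the interaction had adjusted p of 0.934 to 0.999 by edgeR. Within 1 genotype, 0 of 10 members passed in all nuclei and 0 of 66 pairs in either, where 0.0503% of genes passed in WT and 0.292% in APP/PS1 mice over all nuclei. By class these shares were 0.00689% in DG granule, 0.274% in CA1, 0.0163% in CA3, 0.151% in inhibitory, 0.709% in astrocyte, 0.0807% in oligodendrocyte and 0% in OPC nuclei in WT mice, and 0%, 0.471%, 0%, 0.117%, 0.476%, 0.215% and 0% in APP/PS1 mice. At an unadjusted p under 0.05 there were 7 pairs in WT and 8 in APP/PS1 mice, and 1 member in all nuclei in each. Of all genes, 12.4% in WT and 12% in APP/PS1 mice were at this level over all nuclei, and 7.12 to 13.5% and 5.56 to 11.6% in the classes, so the members' counts were near this background. DESeq2 called 1 member in all nuclei and 2 pairs in WT mice and 0 of either in APP/PS1 mice, where it called 1.81% and 2.68% of all genes over all nuclei and 0.155 to 1.89% and 0 to 1.69% in the classes. With the number run as a block edgeR called 1 member in all nuclei and 3 pairs in WT mice and 2 pairs in APP/PS1 mice, where it called 0.377% and 1.24% of all genes over all nuclei and 0.239 to 2.36% and 0.0281 to 2.16% in the classes. With Prnp against some labels and mice 11, 14 and 17 left out, the counts for genotype, interaction and each genotype were also 0.

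The ketamine mice shared the awake mice with the isoflurane comparison, so the values of both are set side by side and not correlated. Per2 in CA1 was 6.90 and 5.93 CPM in the 2 WT mice and 10.0 and 5.17 CPM in the 2 APP/PS1 mice under ketamine. All 4 were below every awake mouse, and 4 of 4 were also below the isoflurane median of 22.2 CPM. The log2 difference from the awake mice was −2.47 (SE 0.34), against −0.92 under isoflurane, and from the isoflurane mice −1.56 (SE 0.35). The share of genes that passed for ketamine was 12.4% in all nuclei, 11.3% in DG granule, 8.24% in CA1, 4.42% in CA3, 2.31% in inhibitory, 6.04% in astrocyte, 2.23% in oligodendrocyte and 0.284% in OPC nuclei, from which nothing is read for the members, since they were chosen on ketamine values.

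Per2 under ketamine was 6.67 and 6.31 CPM (WT) and 16.8 and 8.39 CPM (APP/PS1) in DG granule neurons, with 3 of 4 mice below every awake mouse (−1.52, SE 0.26). In CA3 the 2 WT mice had 0 UMIs of Per2, and the APP/PS1 mice had 9.06 and 4.53 CPM. With 3 counts over both WT mice set in place of 0, the WT level would be 3.40 CPM, 6.37-fold below the WT-Awake mean of 21.7 CPM. This is a convention that leaves out the spread between mice, and mouse 29, the lowest awake mouse in CA3, also lay below that mean. Inhibitory neurons had 2.37 and 0 CPM of Per2 in WT and 5.77 and 2.40 CPM in APP/PS1 mice, all 4 below every awake mouse (−2.92, SE 0.61).

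In astrocytes the ketamine mice lay within the awake range of Per2, with 75.5 and 72.7 CPM in WT and 69.6 and 84.4 CPM in APP/PS1 mice under ketamine (0.02, SE 0.17). In oligodendrocytes Per2 was 5.69 to 14.5 CPM (−1.05, SE 0.40), and in OPC 21.2 to 103.8 CPM (−0.08, SE 0.30). Over all nuclei it was 13.1 and 14.9 CPM in WT and 18.3 and 15.7 CPM in APP/PS1 mice, below every awake mouse (−1.15, SE 0.17). The only awake mouse with a number in the ketamine run (25 to 29), mouse 29, was the lowest awake mouse for Per2 in all nuclei and in 6 of the 7 classes, oligodendrocytes being the exception. Against mouse 29 alone, Per2 differed by −0.40 in all nuclei, −0.49 in DG granule, −2.02 in CA1, −2.08 in CA3, −1.74 in inhibitory neurons and 0.59 in astrocytes. The ketamine mice therefore have 1 awake mouse of their run, and the run and the drug cannot be told apart in the rest.

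Per1 under ketamine was 77.7 and 38.8 CPM (WT) and 116.4 and 47.4 CPM (APP/PS1) in oligodendrocytes, 2 of them above every awake mouse (1.16, SE 0.35). In CA1 Per1 was 5.93 to 20.6 CPM against 16.1 to 33.8 CPM awake (−1.001, SE 0.28), and −0.34 against mouse 29 alone. In astrocytes 4 members had differences above 0.5 on the log2 scale under ketamine, both activators (Arntl 0.52, SE 0.19, and Clock 0.56, SE 0.19) and both cryptochromes (Cry1 0.54, SE 0.22, and Cry2 0.69, SE 0.18). Of the 4 ketamine mice, 4 were above every awake mouse for Clock and for Cry2, 3 for Cry1 and 2 for Arntl. The share of all genes above 0.5 is not given here, and these differences were not set against mouse 29 alone. Dbp was at −0.52 over all nuclei (SE 0.29) but 0.49 against mouse 29 alone, and at −1.52 in oligodendrocytes (SE 0.52). Nr1d2 ran from −0.21 to 0.10 over the 7 classes.

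Other genes of the clock were counted from a list of 23. Over all nuclei 0 of 23 passed under isoflurane, and in CA1 1 of 19 tested passed (Bhlhe40, a repressor of E-box genes), a share near the 4.89% of all genes there. Bhlhe40 was 18.4 to 43.9 CPM awake and 6.52 to 16.5 CPM under isoflurane in CA1 with no overlap (−1.43, SE 0.19, adjusted p = 0.000799 by edgeR), and 15.6 to 23.0 CPM under ketamine. In astrocytes, where 5.07% of genes passed, 4 of 21 passed, all higher: Bhlhe40, Npas2 (a paralogue of Clock), Ciart (a repressor of CLOCK and BMAL1) and Tef (a D-box factor like Dbp). These 5 results were named after their values were seen. Bhlhe40 in astrocytes was 45.0 to 67.9 CPM awake and 63.2 to 146.4 CPM under isoflurane (0.81, SE 0.19, adjusted p = 0.0194 by edgeR). Npas2 was 122.9 to 211.3 against 208.9 to 348.5 CPM (0.62, adjusted p = 0.00904) and Ciart 10.9 to 21.2 against 19.3 to 43.1 CPM (0.92, adjusted p = 0.00776). The log2 ratio of Bhlhe40 in CA1 to Bhlhe40 in astrocytes differed by −2.12 under isoflurane, given as a value only because the gene and both classes were picked for this pattern. The median log2 difference in astrocytes was 0.18 over the 10 members and 0.23 over the 21 other clock genes tested, beside −0.01 over all genes. Without mice 1 to 4 the astrocyte values were 0.46 for Bhlhe40 (adjusted p = 0.15) and 0.74 for Ciart (adjusted p = 0.0659) by edgeR, and without mice 11, 14 and 17 Bhlhe40 was 0.83 (adjusted p = 0.0585), as it was 0.80 (adjusted p = 0.0548) without mouse 10. Tef (0.38, adjusted p = 0.0386) was at adjusted p of 0.0529 to 0.123 by edgeR without any 1 of 13 mice.

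Lists of genes that answer to activity and to glucocorticoids were set beside Per1 and Per2. Of 6 activity-regulated genes, 4 were lower over all nuclei under isoflurane, 4 of 6 in CA1, 4 of 6 in CA3, 3 of 4 tested in inhibitory and 1 of 5 in DG granule neurons, beside 5.12%, 4.89%, 1.68%, 1.92% and 2.06% of all genes that passed in either direction. In astrocytes 1 of 5 was lower (Arc, −2.18, adjusted p = 0.0118 by edgeR), beside 5.07% of all genes. In CA1 these were Fos (−3.67), Arc (−2.59), Npas4 (−1.60) and Egr1 (−1.61), where Per2 was at −0.92. Of 6 glucocorticoid-responsive genes, 2 were higher in astrocytes, Fkbp5 (2.38, adjusted p = 0.00485 by edgeR) and Tsc22d3 (1.12, adjusted p = 0.0229 by edgeR, and 0.0532 to 0.069 without mouse 4, 10, 16, 17 or 18, at 0.99 to 1.09). In inhibitory neurons 1 of 5 tested was lower (Sgk1, −0.71, adjusted p = 0.00718 by edgeR). In all nuclei 0 of 6 of this list passed, as did 0 of 5 tested in DG granule, CA1 and CA3 neurons each and 0 of 3 in OPC. The medians of the list there were −0.156, −0.085, −0.305, −0.303 and 0.449 in this order. Fkbp5 was 19.5 to 66.3 CPM in awake and 35.0 to 396.3 CPM in isoflurane astrocytes. In oligodendrocytes, where Per1 was higher, 0 of the 6 passed by edgeR, and Fkbp5 was at 1.17 (adjusted p = 0.148). The median difference of the 10 members was −0.02 in all nuclei and −0.10 in CA1, beside −1.59 and −1.61 for the activity list. Under ketamine, as values without a test, 4 genes of the activity list were lower and 2 higher over all nuclei (median −0.704), and 6 of 6 were lower in CA1 (median −1.349).

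Over the 20 mice and 10243 genes of at least 10 CPM, the genes whose level in all nuclei was most like that of Per2 included Etv5 (Pearson r = 0.92), Hsd17b12 (0.90), Pprc1 (0.88) and Spred2 (0.88). Those most like Dbp were Rnf7 (0.94), Rraga (0.93), Dynll2 (0.93), Rab18 (0.93) and Rab9 (0.93). These correlations are a description over mice of 3 states that share library, depth and composition, and they carry no p. The ketamine mice, whose low Per2 in CA1 chose the genes, are among the 20 mice and enter the likeness to Per2. Among the members, Per1 and Cry1 were the closest pair (0.84), Per3 and Dbp were at 0.62, and Arntl and Dbp were at −0.60.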

How the data were processed

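Raw UMI counts of every gene in every nucleus were deposited by the authors for 20 mice, and had been made with Cell Ranger 5.0.0 on mm10 by the submitters' processing notes. The methods also name steps against ambient RNA and doublets. Whether the deposited counts include these steps is not given in the sources used here. No doublets were removed here. All nuclei had at least 229 genes, and the median nucleus held 1235 to 3169 UMIs by mouse. A nucleus joined 1 of 12 classes when it held at least 3 of 10 markers and at least 2 more than of any other class. Counts were summed per mouse and class, since nuclei of 1 mouse are not replicates. The quasi-likelihood test of edgeR 4.0.16 in R 4.3.3 (filterByExpr, TMM factors, Benjamini-Hochberg over all genes tested, threshold 0.05) was fitted to the 16 awake and isoflurane mice, and to 20 mice for ketamine, without p. CPM are counts per 1000000 UMIs of the normalized library. Class ratios used a prior of 0.5 counts. The scripts were tested on simulated data. Figures used matplotlib 3.10.9. The members, the lists and the markers were chosen with earlier results of these data known. All 10 members are named. Other clock genes were to be named when called in all nuclei or beside a member. Alternatives were DESeq2 1.42.0, no filter, 20 mice in the fit, the run of numbers (1 to 4, 10 to 13, 14 to 17, 18 to 20 and mouse 29 alone) as a block, no mice 1 to 4, nuclei of at least 500 genes, a stricter gate, likelihood assignment, equal nuclei per mouse and each mouse left out. Mouse 29, the only mouse of its block, therefore carried no weight in the block differences. Leaving out mice 11, 14 and 17, values within runs and class ratios were added after seeing the data. 1 gene of like pattern is not reported here.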

Additional observations from a re-analysis of the deposited data

Results flagged for a closer look

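Over all nuclei, Per3 in APP/PS1-Isoflurane mouse 4 was 127.1 CPM, far from the other mice of its group (67.6 to 72.2 CPM). Cry2 in WT-Awake mouse 12 was 101.7 CPM, against 58.7 to 72.5 CPM in the other WT-Awake mice. These 2 of 48 groups of values held a sample far from the others, where chance gives about 1 in 20.

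The isoflurane difference, isoflurane minus awake, is listed for 9 log2 ratios between cell classes, which are all that were computed. The genes and classes were picked after their values in these same mice were seen, so the ratios are given as values with no test. For Per2 relative to astrocytes it was −1.11 in DG granule, −1.25 in CA1, −1.70 in CA3 and −1.97 in inhibitory neurons. For Per1 in oligodendrocytes it was 1.48 relative to DG granule, 1.91 to CA1, 1.88 to CA3 and 1.95 to inhibitory neurons. For Bhlhe40 in CA1 relative to astrocytes it was −2.12.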

How the results depend on the processing

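Under isoflurane, the count of members called in all nuclei went from 1 to 0 without mice 1 to 4, and from 0 to 1 with each mouse left out in turn (0 without mouse 2 or 3). The count of pairs of members and classes went from 5 to 8 with the number run as a block, 3 with the stricter gate, 1 with equal nuclei per mouse, 1 without mice 11, 14 and 17, 0 without mice 1 to 4, and 1 to 6 with each mouse left out (1 without mouse 2, 6 without mouse 11). With the block the share of all genes called also rose in each class, from 0.45 to 5.07% over the classes to 1.34 to 9.31%. Single calls given above also changed with DESeq2, likelihood assignment and nuclei of at least 500 genes, whose pair counts are not listed. With equal nuclei, fewer counts entered the sums and 48 pairs were tested in place of 66, and the cause of the other shifts was not tested. Within WT mice, the members called rose from 0 to 1 in all nuclei and 2 pairs with DESeq2, to 1 and 3 with the block, and to 1 pair with likelihood assignment. Within APP/PS1 mice they rose to 2 pairs with the block. Genotype and interaction called 0 members under all alternatives run.

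Signs that turned were all of differences that had not passed. Per2 in oligodendrocytes was 0.17 with the stricter gate, 0.25 with likelihood assignment, 0.002 without mice 11, 14 and 17, and −0.37 to 0.025 with each mouse left out. Per1 in DG was 0.046 with equal nuclei. In all nuclei and without mice 1 to 4, Cry2 was −0.09, Nr1d1 −0.44 and Dbp −0.12, and Nr1d1 was −0.25 without mice 11, 14 and 17. With each mouse left out Per3 ran from −0.027 to 0.27, Cry2 from −0.038 to 0.13, Nr1d1 from −0.51 to 0.22 and Dbp from −0.14 to 0.18. For ketamine, Per2 in CA1 was −2.02 against mouse 29 and −2.76 to −2.28 with each mouse left out. Mice could not be paired by number, since no number is shared between groups, and the block of number runs above, a matching assumed from the order of the numbers, stands in for it.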
